A study of Mus musculus with 3 samples.

Results

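The 10 genes described here are interferon-stimulated genes and regulators of interferon signalling: Isg15, Ifit1, Ifit3, Mx1, Irf1, Irf3, Irf7, Irf9, Cxcl9 and Cxcl10. They were taken by name from the 258 gene columns of a MERSCOPE imaging panel with no threshold on their measured values. The panel was read in 3 mammary tumours labelled MMTV-PyMT WT, with 1 formalin-fixed, paraffin-embedded section per tumour, no treatment and no other group. MMTV-PyMT mice express the polyoma virus middle T oncogene from a promoter active in mammary epithelium and develop mammary carcinomas. The labels do not say what WT refers to, how old the mice were or whether the tumours came from separate mice. Each p-value from a fit with the tumour as a block thus weighs a difference within tumours against its variation among these 3 tumours. MERSCOPE detects single transcripts in place by repeated fluorescent hybridization, and each transcript is given to a segmented cell. The tables also hold 27 blank codes, which match no gene and count false detections.

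Interferons are secreted proteins made by cells that sense foreign or misplaced nucleic acid (type I) or by activated T and NK cells (type II). Type I interferon signals through a complex that contains IRF9 and binds the interferon-stimulated response element (ISRE). Type II interferon acts on genes that carry another element, the gamma-activated site (GAS). Isg15, Ifit1, Ifit3 and Mx1 encode antiviral effectors: a ubiquitin-like protein, a pair of RNA-binding proteins and a GTPase. Irf3 is made constitutively and is switched on by phosphorylation, Irf7 is itself induced by interferon, and Irf1 is a rapid target of type II interferon. Cxcl9 and Cxcl10 encode chemokines that attract T cells carrying CXCR3.

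Stretches of promoter sequence that match these elements are shown because the members moved in different sets in the sections. RefSeq promoters on the mouse build GRCm38.p6, from 250 bases before to 50 after the transcription start, were found for 9 of the 10 members. None was found for Mx1, which was therefore not searched. Irf1 and Irf9 have 2 starts each, so that 11 promoters were searched. The core of the ISRE was searched as GAAANNGAAA and the GAS as TTCNNNGAA, on both strands and with overlapping matches allowed. An ISRE core was present in 4 members (Isg15, Ifit1, Ifit3 and Cxcl10) and in 3.44% of 32851 promoters of the same length in the table. A GAS was present in 1 member, Irf1, and in 8.30% of the promoters. A match is a description of these letters, and its absence from the windows of Irf3, Irf7, Irf9 and Cxcl9 says only that these letters are not in them. The stretches run in the direction of transcription and carry the matches in capitals.
Isg15, chr4:156200863-156200908, minus strand, 3 overlapping matches beginning between positions -78 and -66: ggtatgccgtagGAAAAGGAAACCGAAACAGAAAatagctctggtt
Ifit1, chr19:34640773-34640825, plus strand, 2 matches on the opposite strand at positions -104 and -85: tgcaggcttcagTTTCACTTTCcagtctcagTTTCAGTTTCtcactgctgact
Ifit3, chr19:34583361-34583428, plus strand, 2 matches on the opposite strand at positions -156 and -122: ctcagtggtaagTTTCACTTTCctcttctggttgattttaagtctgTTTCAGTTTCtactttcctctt
Cxcl10, chr5:92349081-92349114, minus strand, 1 match at position -213: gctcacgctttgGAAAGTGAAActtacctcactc
Irf1, chr11:53769912-53769944, plus strand, a GAS at position -90: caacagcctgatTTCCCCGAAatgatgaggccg

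The sections held 663145, 513963 and 786165 segmented cells in tumours 1, 2 and 3. After filtering on transcripts and volume, 619770, 453995 and 673638 cells remained, with medians of 98, 106 and 94 panel transcripts, and no cell identifier was shared between sections. Blank codes took 0.503%, 0.481% and 0.496% of the decoded transcripts. Levels below are transcripts of a gene per 1000 panel transcripts (written "per 1000"). How many probes each gene had is not stated, so levels are compared between cells and tumours and not between genes.

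Of the 10 members, 5 exceeded the most frequent blank code in all 3 sections (Isg15, Irf1, Irf3, Irf7 and Irf9), against 134 of all 258 genes. Ifit1 and Mx1 exceeded it in 2 sections and Ifit3 in 1. Cxcl9 and Cxcl10 exceeded it in 0 sections: 25 of the 27 blanks had more transcripts than Cxcl9 in each section, and 16, 16 and 13 had more than Cxcl10. Statements on these chemokines therefore rest on how their transcripts were arranged and not on their totals.

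The effectors varied between tumours. Isg15 stood at 0.748, 2.64 and 2.47 per 1000 in tumours 1, 2 and 3, and was detected in 6.09%, 18.8% and 14.8% of cells. Ifit1 stood at 0.356, 0.883 and 1.08 per 1000 and Ifit3 at 0.207, 0.351 and 0.469. Mx1 had the widest relative range of the 10, with 0.294, 0.997 and 1.82 per 1000. In all 4 effectors tumour 1 was the lowest.

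The regulators differed from one another in this respect. Irf7 followed the effectors, with 3.57, 9.99 and 8.83 per 1000, and Irf9 did so over a narrower range, with 2.13, 3.16 and 3.05. Irf1 ranged only from 6.86 to 7.93 per 1000, with 7.18 in tumour 2. Irf3, at 1.5, 1.54 and 1.09, was lowest in tumour 3, where Mx1 and Ifit1 were highest. With 1 section per tumour and no second group, these differences between tumours have no test.

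Cells were assigned to classes by fixed marker lists, as the class with the most marker transcripts if at least 3 transcripts of at least 2 of its genes were present. Epithelial-like cells made up 78.0%, 74.8% and 75% of the kept cells. Their level of the epithelial list was 137, 134 and 116 per 1000, against 43.7, 38.9 and 40.3 in fibroblast-like cells. Fibroblast-like cells numbered 56470, 46133 and 42227, macrophage-like cells 11322, 5637 and 6152, cells gated by Pecam1 and Cdh5 (endothelial junction genes) 3031, 1665 and 830, and cells gated by Pdgfrb and Rgs5 (pericyte genes) 664, 495 and 422. Macrophage-like cells held 60.1, 66.5 and 65.8 per 1000 of the epithelial list. How far transcripts of neighbouring cells entered these classes was not tested.

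Counts were summed per tumour and class and compared with epithelial-like cells of the same tumours by edgeR's quasi-likelihood test with the tumour as a block, over 213 genes after the gate markers were left out. All classes tested, the T- or NK-gated cells described below among them, entered the same fit and shared its estimate of the spread. Differences are given on the log2 scale ± the standard error of the fit, and adjusted p-values use Benjamini-Hochberg over all genes tested.

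In macrophage-like cells 0 of the 10 members passed at 0.05, where 31.5% of the 213 genes did, and 0 members had an unadjusted p under 0.05. Isg15 stood at 0.627, 3.11 and 2.44 per 1000 against 0.756, 2.73 and 2.52 in epithelial-like cells, and Irf7 at 3.50, 14.4 and 12.7 against 3.85, 10.4 and 8.93. The tumours kept their order in both classes, with tumour 1 lowest, and the ranges of the classes overlapped. Of the other interferon pathway genes tested, 2 of 7 were higher and 0 lower. These were Irf8, a regulator of myeloid cell fate (2.12 ± 0.26, adjusted p = 3.75e-05), and Cd274, which encodes the checkpoint ligand PD-L1 (0.90 ± 0.21, adjusted p = 0.00409). Without tumour 3, 1 member was called higher, Mx1 (0.90, adjusted p = 0.0280, against 0.38 and 0.401 with all tumours). In that fit 40 of the 213 genes were higher.

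In fibroblast-like cells 5 members were lower and 1 higher, where 29.6% and 35.2% of all genes tested were; 64.8% passed in either direction. The median log2 fold change of the members was -0.45, against -0.10 over all genes tested. Irf7 stood at 1.67, 4.13 and 2.95 per 1000 against 3.85, 10.4 and 8.93 in epithelial-like cells (-0.96 ± 0.22, adjusted p = 0.00166). Irf9, a DNA-binding subunit of the type I interferon complex, stood at 1.18, 1.65 and 1.49 against 2.27, 3.35 and 3.15 (-0.62 ± 0.15, adjusted p = 0.00322). Each tumour's fibroblast-like value lay below its epithelial-like value for both genes, and for Irf9 the classes did not overlap. Irf1 had 3.86, 3.65 and 4.39 per 1000 against 7.33, 7.69 and 8.21 (-0.57 ± 0.17, adjusted p = 0.0091), and Irf3 had 0.786, 0.877 and 0.612 against 1.63, 1.63 and 1.14 (-0.55 ± 0.17, adjusted p = 0.0135). These classes did not overlap either. Mx1 had 0.220, 0.409 and 0.543 against 0.297, 1.04 and 1.89 (-0.81 ± 0.31, adjusted p = 0.0304), with overlapping ranges. The other effectors did not pass: Isg15 gave -0.28 ± 0.25, Ifit1 -0.34 ± 0.27 and Ifit3 -0.16 ± 0.26. Cxcl9 was the member that was higher in fibroblast-like cells, at 0.0878, 0.0604 and 0.102 per 1000 against 0.0663, 0.0540 and 0.0752 (0.73 ± 0.21, adjusted p = 0.00855). The classes overlapped, and these levels lay under that of the highest blank code in all 3 tumours. In the same fit 9 of the 27 blanks were higher, by up to 1.85. Of the other pathway genes, 3 of 7 were higher and 3 lower. Among the lower ones was H2-K1, a class I antigen presentation gene (-1.0 ± 0.17, adjusted p = 0.000156), and among the higher ones Ccl5, a T cell chemokine gene (2.48 ± 0.29, adjusted p = 4.77e-06). Irf7, Irf9 and Cxcl9 kept their calls without any 1 tumour. Mx1 lost its call without tumour 2 (adjusted p = 0.137) and without tumour 3 (0.159), and Irf1 and Irf3 without tumour 1 (0.0792 and 0.171) and without tumour 2 (0.0619 and 0.0862).

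Pecam1- and Cdh5-gated cells had 2 members lower and 2 higher, where 33.3% and 31.9% of all genes tested were lower and higher and 65.3% passed in either direction. Mx1 stood at 0.136, 0.267 and 0.568 per 1000 (-1.13 ± 0.33, adjusted p = 0.00811) and Irf7 at 1.44, 3.74 and 5.77 (-0.61 ± 0.22, adjusted p = 0.0233). Cxcl9 stood at 0.278, 0.164 and 0.423 per 1000 against 0.0663, 0.0540 and 0.0752 in epithelial-like cells (2.58 ± 0.25, adjusted p = 2.61e-07), without overlap. Cxcl10 stood at 0.0965, 0.194 and 0.599 against 0.142, 0.120 and 0.163 (1.25 ± 0.40, adjusted p = 0.0137) and was higher in 2 of 3 tumours. The highest blank lay above Cxcl9 in all 3 tumours and above Cxcl10 in 2, and of the blanks 11 were called higher and 5 lower in this fit, from -1.51 to 2.0. Irf7 lost its call without tumour 1 (adjusted p = 0.142) or tumour 2 (0.235), Mx1 without tumour 2 (0.0944), and Cxcl10 without tumour 2 (0.0578) or tumour 3 (0.173). Pdgfrb- and Rgs5-gated cells gave the same 4 members in the same directions: Mx1 -0.96 (adjusted p = 0.0354), Irf7 -0.65 (0.0217), Cxcl9 2.66 (1.34e-06) and Cxcl10 1.26 (0.0354), where 58.2% of all genes passed. Cxcl9 (0.178, 0.205 and 0.648 per 1000) and Cxcl10 (0.0686, 0.278 and 0.536) lay below the highest blank in all 3 tumours, Cxcl10 was higher than in epithelial-like cells in 2 of 3, and 5 blanks were higher in this fit, by up to 2.37, and 2 lower. Cxcl9 kept its call without any 1 tumour. Irf7 lost it without tumour 1 (0.171) or tumour 2 (0.0562), Mx1 without tumour 1 (0.0882) or tumour 2 (0.187), and Cxcl10 without tumour 2 (0.165) or tumour 3 (0.200).

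**Figure D1:**
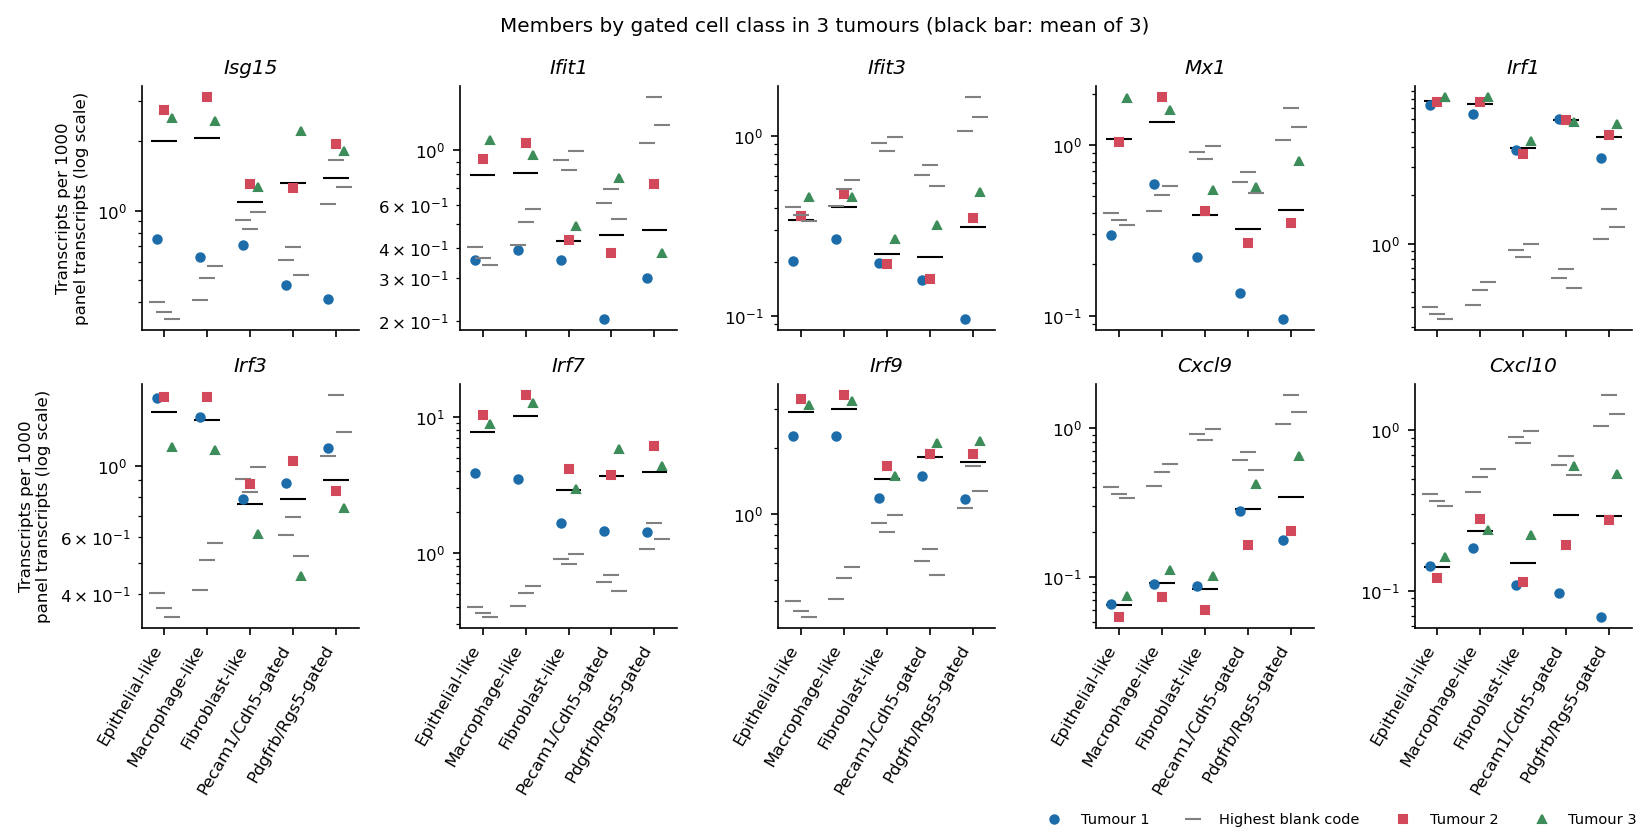
Transcripts of each member per 1000 panel transcripts (log axis) in 5 gated cell classes, with 1 point per tumour, the mean of 3 tumours as a black bar and the highest blank code of each class and tumour as grey bars. Irf7 and Irf1 stand above the blanks in every class and are lower in fibroblast-like than in epithelial-like cells, whereas every point of Cxcl9 lies below its blank.

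Library composition bears on the direction of these class comparisons. With library size alone in place of TMM normalization, the median of all genes tested shifted by -0.40 in fibroblast-like, -0.51 in Pecam1- and Cdh5-gated and -0.42 in Pdgfrb- and Rgs5-gated cells, and by 0.16 in macrophage-like cells. The share of higher among called genes then went from 54.3% to 31.4%, from 48.9% to 30.3%, from 50% to 33.1% and from 38.8% to 60.6%, respectively. Under it 7 members were lower and 0 higher in fibroblast-like cells, where 107 and 49 of the 213 genes were, Isg15 (-0.67, adjusted p = 0.0265) and Ifit1 (-0.72, 0.0265) among them, and Cxcl9 no longer passed (0.33, 0.152). In Pecam1- and Cdh5-gated cells 8 members were then lower and 1 higher, where 106 and 46 of the 213 genes were, and Irf1 went from 0.13 to -0.39 (adjusted p = 0.0293). Without the tumour as a block, 0 members passed in fibroblast-like cells, where 91 of the 213 genes did. In Pecam1- and Cdh5-gated cells 2 members then passed, both higher, where 113 of the 213 genes passed and 58 were higher.

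In order of their mean over tumours, the levels of Irf7 were 10.2 ± 5.85 per 1000 in macrophage-like cells (SD, n = 3), 7.71 ± 3.42 in epithelial-like, 3.95 ± 2.34 in Pdgfrb- and Rgs5-gated, 3.65 ± 2.16 in Pecam1- and Cdh5-gated and 2.92 ± 1.23 in fibroblast-like cells. Every neighbouring pair in this order overlapped between tumours. Isg15 had the same order, from 2.06 ± 1.28 to 1.09 ± 0.336, again with overlap between every neighbouring pair. Irf1 ran from 7.74 ± 0.446 in epithelial-like and 7.48 ± 0.903 in macrophage-like cells, which overlapped, to 5.89 ± 0.105 in Pecam1- and Cdh5-gated, 4.61 ± 1.10 in Pdgfrb- and Rgs5-gated and 3.97 ± 0.384 in fibroblast-like cells. The Pecam1- and Cdh5-gated cells overlapped neither of their neighbours for Irf1, while the last pair overlapped. Outside this order, unassigned cells had means of 10.4 per 1000 for Irf7, 2.48 for Isg15 and 7.36 for Irf1. T- or NK-gated cells, described next, had 9.22, 2.75 and 12.5 for the same genes. Neutrophil-gated cells (40, 124 and 180 cells) had 5.67, 2.63 and 6.59. Among the ordered classes only pairs that include epithelial-like cells were tested, with the results given above. These levels are not TMM-scaled: in the fit above, Irf1 in Pecam1- and Cdh5-gated cells differed from epithelial-like cells by 0.13 (adjusted p = 0.543), against -0.39 with library size alone.

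Cells gated as T or NK cells numbered 205, 199 and 123. The same gate run on 15 blank codes took 55, 16 and 58 cells, and in tumour 2 blanks made up 13.3% of the transcripts of the T- or NK-gated cells, so the class is only sketched. In it 3 of 10 members were higher and 0 lower, where 24.9% and 26.8% of all genes were and 51.6% passed in either direction: Irf1 (0.53, adjusted p = 0.0187), Cxcl9 (2.29, 0.000623) and Cxcl10 (2.0, 0.00727). Irf1 lost its call without tumour 1 (0.0678) or 2 (0.239), and Cxcl10 without tumour 2 (0.191). Blanks were also higher there, 7 of 27 and by up to 7.17. Epithelial-like cells within 25 µm of such a cell (3726, 2093 and 1544 cells) were compared with those more than 75 µm from any. By edgeR's quasi-likelihood test 0 of the 10 members passed, where 0.775% of 258 genes did; 3 members and 29 of all genes had an unadjusted p under 0.05, and DESeq2 called 2 members among 12 genes.

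The next question was whether the members were found in the same cells. Epithelial-like cells with at least 2 Isg15 transcripts (6114, 24226 and 30622 cells, or 1.26%, 7.13% and 6.06%) were compared with those with 0, in edgeR with the tumour as a block and Isg15 left out. Of the other 9 members 7 were higher and 0 lower, where 10.1% of 257 genes were higher and 1.95% lower. The median log2 fold change of the 9 was 1.19, against 0.0047 over all genes tested.

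Mx1 and Ifit1 were furthest apart. Mx1 stood at 3.22, 7.17 and 14.7 per 1000 in Isg15-positive cells against 0.233, 0.367 and 0.537 in cells without Isg15 (4.37 ± 0.24, adjusted p = 0.000973). Ifit1 stood at 3.07, 4.55 and 6.12 against 0.288, 0.474 and 0.518 (3.50 ± 0.14, adjusted p = 0.000415), and Ifit3 at 0.928, 1.71 and 2.53 against 0.184, 0.203 and 0.231 (3.04 ± 0.25, adjusted p = 0.00324). The positive cells of every tumour lay above the Isg15-zero cells of all 3. Levels in the positive cells were lowest in tumour 1 and highest in tumour 3 for each of these 3 effectors.

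Among the regulators, Irf7 had nearly the same level in the positive cells of every tumour, at 38.3, 39.3 and 41.1 per 1000, against 2.89, 6.37 and 4.80 in cells without Isg15 (3.23 ± 0.24, adjusted p = 0.00287). Irf9 stood at 5.29, 5.47 and 6.18 against 2.18, 3.03 and 2.74 (1.19 ± 0.14, adjusted p = 0.00767). Irf1 stood at 9.06, 9.34 and 11.1 against 7.26, 7.48 and 7.95 (0.46 ± 0.09, adjusted p = 0.0368); its call was lost without tumour 2 (0.149) and without tumour 3 (0.108). Irf3 was not called by edgeR (-0.25 ± 0.12, adjusted p = 0.23) and was lower by DESeq2 (-0.29, adjusted p = 0.00363), which called 86 of 257 genes. The Isg15-positive and Isg15-zero cells did not overlap for Irf7, Irf9 or Irf1.

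Of the chemokines, Cxcl10 was higher, at 0.232, 0.228 and 0.330 per 1000 against 0.140, 0.105 and 0.141 (1.13 ± 0.11, adjusted p = 0.00452), above the highest blank in 1 tumour. Cxcl9 was not called (0.18, adjusted p = 0.52), though it passed without tumour 1 (0.32, adjusted p = 2.86e-05). Of the 8 other pathway genes 3 were higher and 0 lower: Cd274 (1.77 ± 0.26, adjusted p = 0.0129), Ccl5 (1.35 ± 0.22, 0.0185) and H2-K1 (0.65 ± 0.08, 0.0090). Outside the pathway the largest of the passing differences included Krt14, a basal keratin gene (-0.81), the proliferation gene Mki67 (-0.50), and the leukocyte genes Ccr2 (0.88) and Fcer1g (0.71). Of the 27 blanks 2 were also higher, by up to 0.59. With library size alone the share of higher among called genes went from 83.9% to 64.9%, and the same number of members, 7, was higher, among 24 of 257 genes. Without the tumour block 5 members passed, where 14 of 257 genes did, and Irf9 (adjusted p = 0.051) was not among them.

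Of the Isg15-positive cells 85.2%, 56.3% and 64.3% lay in the 10% of tiles richest in Isg15, which are described below. When both kinds of cell were taken only from those tiles, the differences were smaller: Mx1 2.36, Ifit3 1.62, Ifit1 1.53, Irf7 1.10, Cxcl10 0.75 and Irf9 0.48, all 6 past the threshold (adjusted p up to 0.0251 in edgeR). There 30 of 257 genes passed, 23 of them higher. With both kinds taken only from the other tiles, 5 members passed, where 11 of 257 genes did. Mx1 was at 2.55, Ifit1 at 2.09, Irf7 at 2.06, Ifit3 at 1.42 and Cxcl10 at 0.64, while Irf9 (0.55, adjusted p = 0.112) did not pass. Irf1 passed in neither (adjusted p = 0.0570 and 0.331).

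Shares of cells gave the same contrast within a limited range of depth, inside which depth was not matched further. Among epithelial-like cells of 60 to 150 transcripts, Irf7 was detected in 86.9%, 92.4% and 93% of Isg15-positive cells (3050, 10864 and 13884 cells) and in 21.1%, 42.9% and 28.4% of cells without Isg15. Mx1 was detected in 20.6%, 28.7% and 49.7% against 2.28%, 3.70% and 4.70%, and Ifit1 in 27.1%, 36.6% and 45.1% against 2.77%, 5.38% and 5.05%. The most frequent blank was detected in 3.28%, 4.44% and 3.43% against 2.91%, 3.77% and 3.43%. In positive cells both effectors were thus detected far more often than any blank, and in cells without Isg15 at shares near that of the blank. At least 2 of Ifit1, Ifit3, Mx1 and Irf7 were detected in 41.2%, 51.5% and 66% of positive cells against 1.9%, 6.20% and 5.56%. None of the 4 was detected in 11%, 5.90% and 4.84% of positive cells, against 74.0%, 52.6% and 66.2%.

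Over all pairs of members, those among the 4 effectors had the highest ratios of shared cells to expected cells. The log2 ratio of cells that held both genes to the number expected from their separate shares was 1.83 for Ifit1 with Mx1, 1.80 for Ifit3 with Mx1, 1.63 for Isg15 with Ifit1 and 1.61 for Isg15 with Mx1, as means of 3 tumours. Irf7 reached 0.97 with Isg15 and Irf9 0.53. The ratio cannot exceed a limit that falls as the more frequent gene of a pair is detected in more cells. Irf7 and Irf1 were detected in more cells than the effectors, so their ratios cannot be ranked against those of the effectors. Irf1 with Isg15 gave 0.13 and Irf3 with Isg15 -0.08, while the median blank gave 0.05 with Isg15. Cxcl10 went with Mx1 (0.88; 0.36, 1.05 and 1.22 in the tumours) and not with Cxcl9 (-0.12, from 18, 8 and 36 cells). With Cxcl10 the median blank gave 0.29, and the highest blank 0.66, 0.85 and 0.54, which in tumour 1 was above Mx1. Cells within a section share its patches, so these ratios are descriptions without a test.

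**Figure D2:**
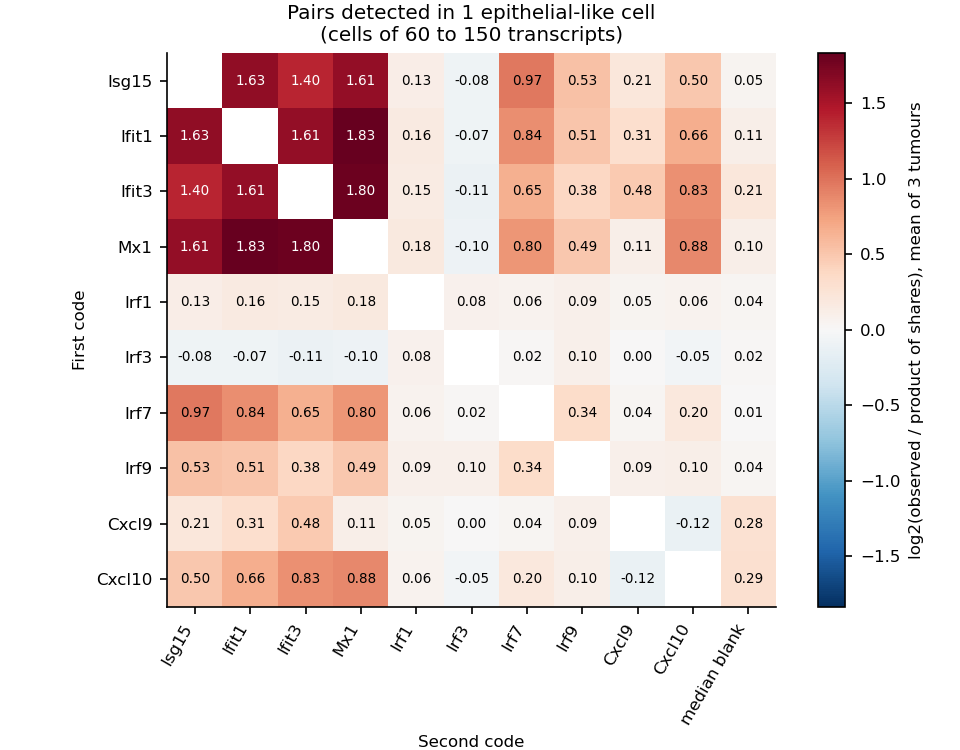
Each square gives the log2 ratio of observed to expected epithelial-like cells that held both codes (cells of 60 to 150 transcripts, mean of 3 tumours); the last column gives the median over the 27 blank codes. The block of Isg15, Ifit1, Ifit3 and Mx1 ranges from 1.40 to 1.83, Irf7 and Irf9 are positive with it, and Irf3 lies near 0.

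Isg15 was arranged in patches. Sections were divided into tiles of 100 µm with at least 20 epithelial-like cells (4648, 5802 and 6239 tiles), and the 10% of tiles with the most Isg15 in epithelial-like cells was called rich in each tumour (465, 580 and 624 tiles). Rich tiles had a median of 2.06, 13.8 and 14.9 Isg15 transcripts per 1000, against 0.314, 0.992 and 0.591 in the others, and began at 1.10, 8.64 and 8.82. The top 10% of tiles thus marked a much lower level in tumour 1 than in the others. The highest tile reached 26.2, 64.9 and 52.1 per 1000, and 260, 140 and 371 tiles held no Isg15. Adjoining rich tiles formed groups of up to 125, 140 and 351 tiles (1.25, 1.40 and 3.51 mm2). When the tiles were chosen by each blank code in the same way, the largest group had a median of 29, 20 and 19 tiles and reached 152, 64 and 108 with the most clustered blank, so that in tumour 1 a blank gave a larger group than Isg15. Rich tiles held 57.5%, 50.3% and 57.4% of the epithelial-like cells' Isg15 and 9.24%, 7.84% and 8.41% of their panel transcripts. These values describe the choice of tiles and are not tested.

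**Figure D3:**
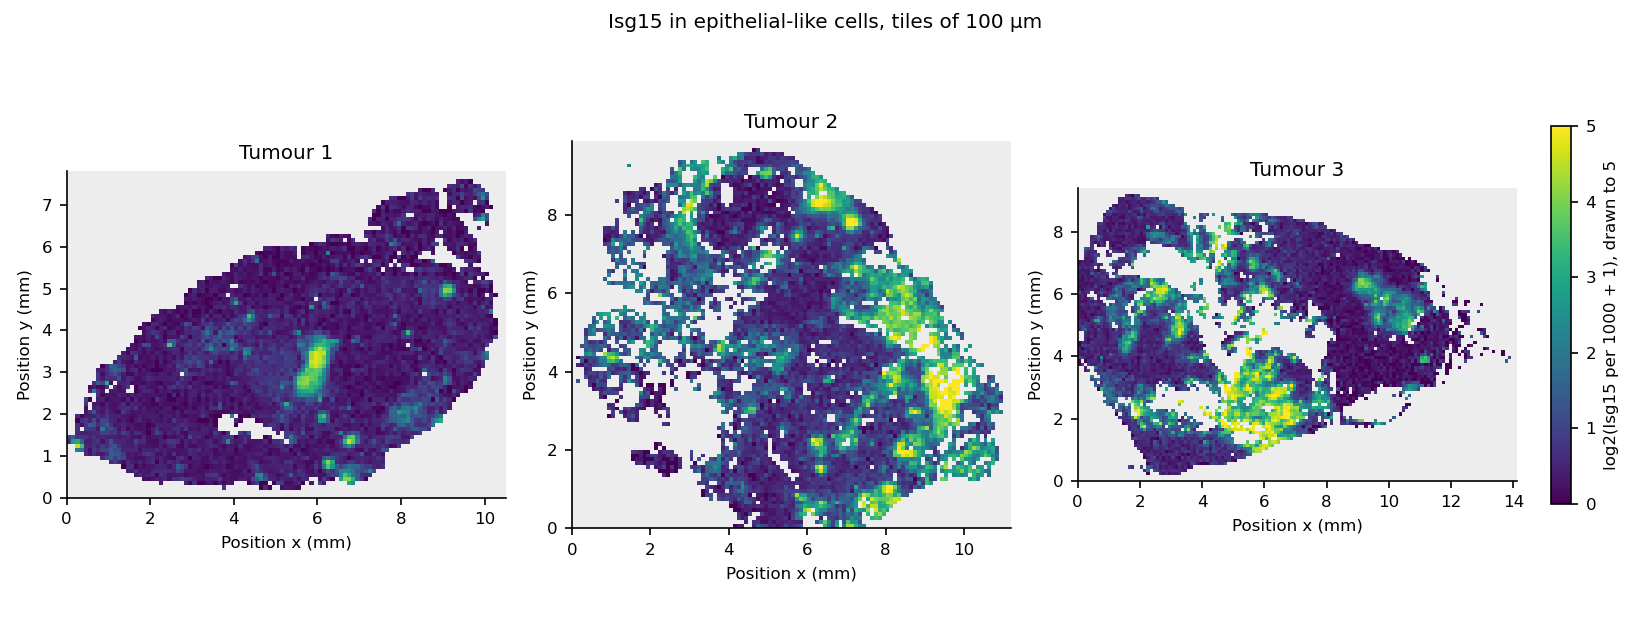
Isg15 in epithelial-like cells over the 3 sections, as log2 of the level per 1000 plus 1 in tiles of 100 µm. Positions are in mm, colours are drawn up to 5, and light grey marks places where a tile had under 20 epithelial-like cells. High areas are patchy in each section, with groups of up to 125, 140 and 351 rich tiles in tumours 1, 2 and 3.

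Tiles rich in Isg15 were largely those rich in Irf7. Of the Isg15-rich tiles 72.9%, 77.4% and 72.8% were also in the top 10% for Irf7, and 54.6%, 76.9% and 76.6% in that for Ifit1. For Mx1 the shares were 38.3%, 67.6% and 74.8%, for Ifit3 31.0%, 65.7% and 72.0%, and for Irf9 55.1%, 50.5% and 57.7%. Irf1 shared 21.3%, 32.8% and 38.5% and Cxcl10 11%, 22.9% and 35.9%. Irf3 shared 3.66%, 4.66% and 5.13%, the lowest of the members, and Cxcl9 17.2%, 10.5% and 16.5%. Single blank codes shared up to 19.4%, 18.3% and 22.0%, which was above Cxcl9 in every tumour and above Cxcl10 in tumour 1, and at least 7.31%, 7.76% and 4.97%. Lists of tiles had the same size for every gene within a tumour.

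Concentration in the rich tiles differed between members and tumours. In tumours 2 and 3 rich tiles held 63.5% and 74.9% of all Mx1 transcripts of epithelial-like cells, but 32.4% in tumour 1. For Irf7 the shares were 47.3%, 35.8% and 43.8%, with tumour 1 the highest. Ifit1 (33.4%, 47.1% and 55.3%) and Ifit3 (19.0%, 46.2% and 55.6%) followed the pattern of Mx1. Irf9 had 16.7%, 14.1% and 18%, Irf1 10.4%, 9.80% and 12.1% and Irf3 7.34%, 6.71% and 6.83%, against 8.12% to 11.6%, 6.77% to 12% and 5.38% to 14.3% for single blanks. Irf9 lay above every blank in each tumour, Irf1 within their range, and Irf3 below it in tumours 1 and 2.

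Epithelial-like cells of rich and other tiles were compared by edgeR with the tumour as a block and Isg15 left out. Of 257 genes 2 passed (0.778%), and both were members, Irf7 and Ifit1. Irf7 stood at 19.7, 46.7 and 46.1 per 1000 in rich tiles against 2.24, 7.13 and 5.44 (3.0 ± 0.14, adjusted p = 0.00147), and Ifit1 at 1.29, 5.47 and 7.22 against 0.261, 0.522 and 0.536 (3.18 ± 0.34, adjusted p = 0.0337). Neither overlapped between the kinds of tile, and tumour 1 was the lowest in both. Mx1 (1.04, 8.34 and 16.8 against 0.221, 0.408 and 0.516) gave 3.93 ± 0.63 with adjusted p = 0.104, and Ifit3 (0.413, 2.09 and 3.0 against 0.179, 0.207 and 0.220) gave 2.83 ± 0.58 with the same adjusted p of 0.104. The standard error of both was larger than that of the genes that passed. Irf9 also missed the threshold, at 4.10, 5.99 and 6.73 against 2.08, 3.12 and 2.81 (1.08 ± 0.15, adjusted p = 0.0742), without overlap. Irf1 (0.40 ± 0.13, adjusted p = 0.209), Cxcl10 (0.92 ± 0.29, 0.204) and Cxcl9 (0.32 ± 0.12, 0.233) did not pass, and Irf3 gave -0.29 ± 0.15 (0.333). Without adjustment 8 of the 9 members had p under 0.05, where 53 of 257 genes had. Of the 8 other pathway genes 0 passed by edgeR's quasi-likelihood test, and of the 27 blanks 0. The number of members called rested on the tumours used. It was 5 among 16 called genes of 257 without tumour 1, and 4 among 4 called genes without tumour 3. Without tumour 2, 0 genes passed (Irf7 3.16, adjusted p = 0.135), and 0 passed without the block (Irf7 2.94, 0.115). DESeq2 called 68 of the 257 genes, among them 8 members higher and 1, Irf3, lower (-0.28, adjusted p = 0.0239). With tiles chosen by Irf7 instead, Isg15 was higher (3.51 ± 0.16, adjusted p = 0.000535), as was Ifit1 (3.02 ± 0.30, 0.0165). Among cells with 0 Isg15 transcripts in both kinds of tile, Irf7 was still higher (2.73 ± 0.17, adjusted p = 0.0259).

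Cell make-up and depth were compared between the kinds of tile. Fibroblast-like cells made up 8.0%, 5.72% and 2.99% of the cells in rich tiles against 8.66%, 8.80% and 5.46%, and macrophage-like cells 1.71%, 1.23% and 0.654% against 1.77%, 1.16% and 0.892%. Unassigned cells were more frequent, at 12.8%, 17.1% and 19.4% against 9.96%, 11.9% and 16.0%. Epithelial-like cells held a median of 100, 104 and 98 transcripts in rich tiles against 103, 120 and 108. Rich tiles lay at the edge of the tiled area in 2.80%, 11% and 12.2% of cases against 3.20%, 7.79% and 7.43%. The part of these differences in the results was not tested.

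The tiles were chosen from epithelial-like cells alone, so that all 10 members could be tested in the other classes lying in them. Macrophage-like cells, however, held 60.1, 66.5 and 65.8 per 1000 of the epithelial list. Those without any such transcript were too few for this comparison. How far transcripts of neighbouring epithelial-like cells entered the macrophage-like values was thus not tested. In macrophage-like cells 6 of 258 genes passed (2.33%), and all were members and higher in rich tiles. Isg15 stood at 3.24, 14.7 and 14.9 per 1000 against 0.349, 1.83 and 1.36 (3.29 ± 0.13, adjusted p = 5.76e-05), and Irf7 at 15.2, 49.9 and 51.3 against 2.22, 9.94 and 9.39 (2.58 ± 0.11, adjusted p = 5.76e-05). Mx1 stood at 2.09, 8.67 and 8.67 against 0.423, 1.07 and 1.02 (2.88 ± 0.20, adjusted p = 0.000727). For all 3 tumour 1 was lowest in both kinds of tile, and the tiles did not overlap. Ifit1 (2.66 ± 0.23, adjusted p = 0.00197), Ifit3 (2.36 ± 0.29, 0.0102) and Irf9 (0.88 ± 0.14, 0.0303) passed too. Cxcl10, at 0.363, 0.579 and 1.27 against 0.163, 0.254 and 0.145, did not (1.9 ± 0.40, 0.0722), nor did Irf1 (0.36), Irf3 (-0.18) or Cxcl9 (-0.03). With library size alone 6 members were again higher, among 7 called genes, and the share of higher among called genes went from 100% to 85.7%. Without tumour 1, 8 members were called in macrophage-like cells, among 30 of 258 genes. Without tumour 2, 1 gene was called, the member Isg15 (adjusted p = 0.0322), and without tumour 3, 3 genes, all members (Isg15, Irf7 and Mx1). Without the block 0 genes were called (Isg15 3.30, adjusted p = 0.137).

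In fibroblast-like cells 8 of 10 members were higher in rich tiles and 0 lower, where 3.88% of 258 genes were higher and 0.388% lower, or 4.26% in either direction. Irf7 stood at 8.42, 19.8 and 20.6 per 1000 against 1.05, 3.41 and 2.23 (2.92 ± 0.15, adjusted p = 1.08e-05) and Isg15 at 2.56, 7.12 and 9.35 against 0.526, 1.01 and 0.838 (2.86 ± 0.22, adjusted p = 0.000171). Mx1 stood at 0.931, 3.54 and 6.11 against 0.147, 0.252 and 0.272 (3.66 ± 0.33, adjusted p = 0.000333). These did not overlap, and tumour 1 was again lowest in rich tiles. Ifit1 (2.42 ± 0.33, adjusted p = 0.00488), Irf9 (0.89 ± 0.12, 0.00488) and Ifit3 (2.14 ± 0.41, 0.0230) were higher as well. Irf1 (0.37) and Irf3 (-0.28) did not pass.

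Both chemokines passed in fibroblast-like cells. Cxcl10 stood at 0.244, 0.617 and 1.70 per 1000 in rich tiles against 0.0941, 0.0920 and 0.147 (2.57 ± 0.37, adjusted p = 0.00514), above the highest blank in 2 tumours. Cxcl9 stood at 0.119, 0.118 and 0.197 against 0.0833, 0.0596 and 0.0891 (0.84 ± 0.16, adjusted p = 0.0240), below it in all 3. Of the 8 other pathway genes only Cd274 passed (1.5 ± 0.27, adjusted p = 0.0183). Mki67 was lower (-0.67). Without tumour 2, 3 of 258 genes passed, all members (Isg15, Irf7 and Mx1), and Cxcl10 had adjusted p = 0.21. Without the block 4 genes passed, all members. Among fibroblast-like cells with no transcript of the epithelial list, 6 members passed, where 9 of 247 genes did. Irf7 was at 2.88 ± 0.19, Isg15 at 2.31 ± 0.22, Mx1 at 3.73 ± 0.26 and Cxcl10 at 2.84 ± 0.35.

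Pecam1- and Cdh5-gated cells in rich tiles numbered 260, 100 and 75, of which tumour 3 was under the planned minimum of 100. With a minimum of 50, chosen after the numbers were seen, 6 of 10 members passed, where 3.17% of 221 genes did, and all were higher. Irf7 stood at 5.47, 19.3 and 24.9 per 1000 against 1.02, 2.90 and 3.38 (2.69 ± 0.15, adjusted p = 8.92e-08) and Isg15 at 1.63, 8.70 and 11.2 against 0.360, 0.803 and 1.02 (3.07 ± 0.27, adjusted p = 6.36e-06). Cxcl10 stood at 0.215, 2.08 and 3.49 against 0.0907, 0.0831 and 0.220 (3.45 ± 0.54, adjusted p = 0.00227), from 7, 28 and 37 transcripts in the rich tiles. The kinds of tile did not overlap for Irf7 and Isg15, and overlapped for Cxcl10 through tumour 1. Without tumour 3, 1 of 243 genes passed, the member Irf7 (2.57, adjusted p = 0.00298), while Isg15 had 0.0504 and Cxcl10 0.491.

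**Figure D4:**
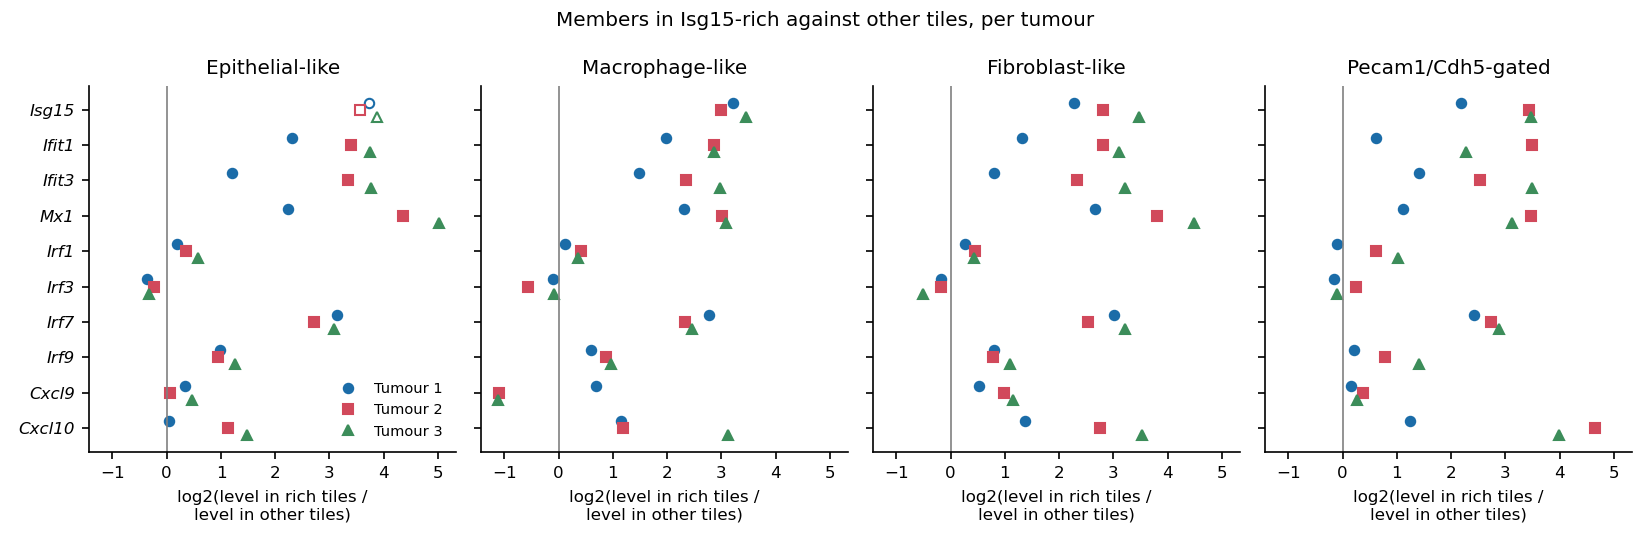
Log2 ratio of each member's level in Isg15-rich tiles to that in other tiles, per tumour, in 4 cell classes; Isg15 in epithelial-like cells is drawn open because it chose the tiles. The effectors and Irf7 lie to the right of 0 in every class and tumour, Irf3 lies near 0, and Cxcl10 lies further right in fibroblast-like and in Pecam1- and Cdh5-gated cells than in epithelial-like cells.

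Whether these tile effects differed between classes was tested as an interaction. By edgeR's quasi-likelihood test 0 of 257 genes passed for macrophage-like against epithelial-like cells (10 genes and 1 member with an unadjusted p under 0.05), and 0 of 257 for fibroblast-like against epithelial-like cells (11 genes and 2 members); DESeq2 called 0 and 1 gene, no member. For Cxcl10 the effect was larger in fibroblast-like than in epithelial-like cells by 1.77 ± 0.61 (unadjusted p = 0.0201, adjusted p = 0.646), and larger in macrophage-like cells by 0.95 ± 0.59 (adjusted p = 0.972). A difference between classes in the tile effect is thus not shown for any member. For Pecam1- and Cdh5-gated cells it was run by edgeR only without tumour 3, where 0 of 257 genes passed and 15 had an unadjusted p under 0.05.

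Few cells held several transcripts of the chemokines. Cells with at least 3 Cxcl10 transcripts numbered 37, 126 and 192, of which 15, 43 and 76 were fibroblast-like and 55.6%, 58.5% and 62.4% of those in tiles lay in rich tiles. For cells with at least 3 transcripts of a blank code, summed over the 27 codes, the shares in rich tiles were 9.58%, 5.81% and 5.24%. The fibroblast-like share of the Cxcl10 cells was 40.5%, 34.1% and 39.6%, and that of the blank cells 38.3%, 34.8% and 17.4%. The share in rich tiles was thus above that of the blanks in each tumour, while the fibroblast-like share was close to it in tumours 1 and 2. With at least 5 transcripts (10, 36 and 60 Cxcl10 cells) the fibroblast-like share was 70%, 36.1% and 50%, against 21.3%, 15.5% and 8.44% for the blanks, so that it was above that of the blanks in every tumour. In each tumour, however, a single blank code gave 69 of the 127, 159 of the 194 and 372 of the 687 blank cells. The share of the blanks thus rests largely on where that code was found.

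The reach of the patches was measured around 2000 Isg15-positive epithelial-like cells per tumour. In this and the next paragraph the level of the section is that of all its epithelial-like cells. Isg15 in neighbouring epithelial-like cells within 15 µm was 15.7, 5.62 and 6.36 times the level of the section, at 100 to 150 µm 11, 3.76 and 4.12 times, and at 300 to 500 µm 4.62, 1.95 and 2.86 times. Irf7 went from 9.80, 3.87 and 4.73 times to 3.81, 1.76 and 2.51 times over the same distances. Mx1 went from 10.5, 6.95 and 9.11 to 2.28, 2.15 and 3.74 times, and Ifit1 from 8.78, 4.97 and 6.09 to 2.69, 2.02 and 3.11 times. All 4 were thus still above the level of the section at 300 to 500 µm, and nearest the cell each had its largest ratio in tumour 1. The level itself was lower there in tumour 1 than in tumour 2 for all 4, as was the level of the section. Isg15 stood at 11.8 per 1000 in tumour 1 and 15.3 in tumour 2, against 0.756 and 2.73 in the sections.

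Irf9 lay at 2.45, 1.68 and 2.08 times the level of the section nearest the cell and at 1.58, 1.23 and 1.53 times at 300 to 500 µm. Irf3 stayed below the section's level, from 0.758, 0.876 and 0.856 times to 0.799, 0.953 and 0.935. Nearest the cell Cxcl10 stood at 1.29, 1.98 and 2.21 times and Cxcl9 at 0.908, 1.07 and 1.16 times. Nearest the cell all blanks together stood at 0.948, 0.992 and 0.904 times. These ratios describe the sections and have no test, since neighbouring cells share their patch.

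**Figure D5:**
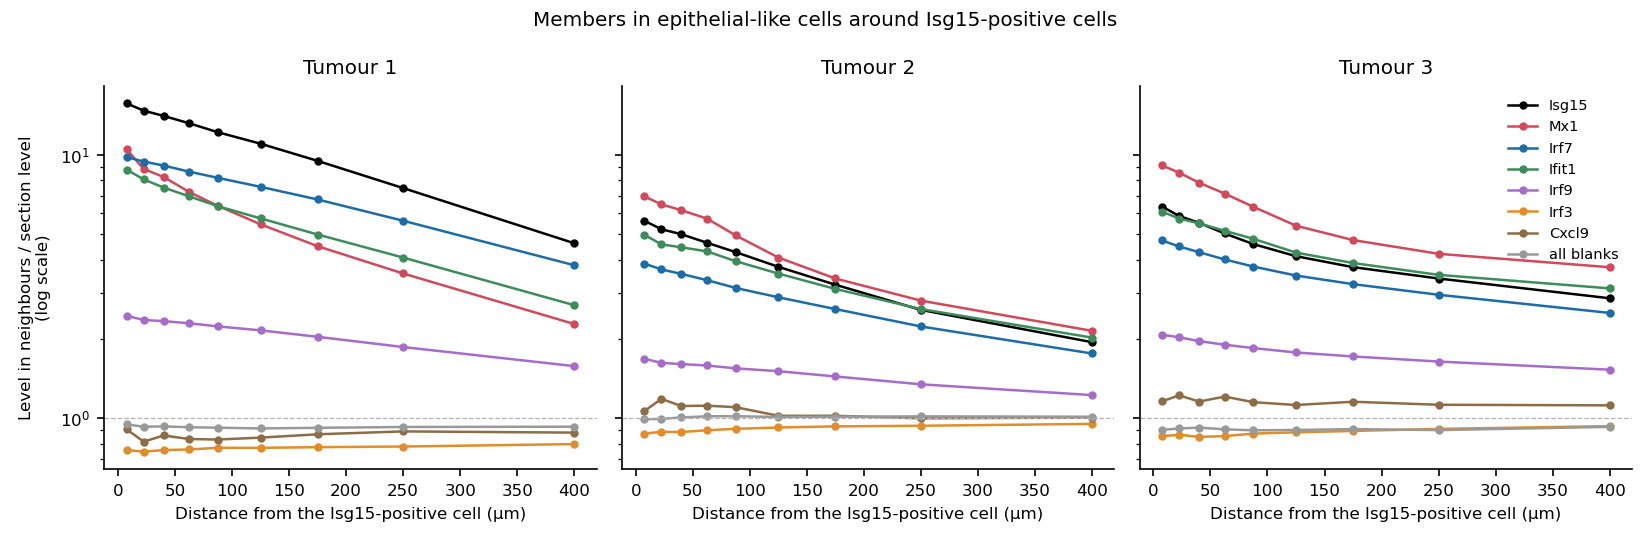
Level of 7 members and of all blank codes in epithelial-like cells by distance from an Isg15-positive epithelial-like cell (µm), divided by the level of all epithelial-like cells of the section (log axis), in each tumour. Isg15, Mx1, Irf7 and Ifit1 fall off with distance, Irf9 lies lower, and Irf3, Cxcl9 and the blanks lie near 1.

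For each member the genes with the most similar pattern over tiles were taken by the mean of Spearman's rho over the 3 tumours (4648, 5802 and 6239 tiles), among the 134 genes above the highest blank in all 3 sections. Isg15 and Irf7 were each other's closest gene, with rho of 0.48, 0.86 and 0.79. Irf7 was also the closest gene to Irf9 (0.47, 0.72 and 0.64). Isg15 was the closest gene to Ifit1 (0.26, 0.69 and 0.69), to Mx1 (0.14, 0.50 and 0.57) and to Ifit3 (0.15, 0.42 and 0.45). For these 6 genes the closest of the 134 was thus another member, in each case with the lowest rho in tumour 1. Ifit1 is not among the 134 and had a higher mean than Isg15 with Mx1 (0.19, 0.51 and 0.60) and with Ifit3 (0.16, 0.44 and 0.46). The other members paired with genes outside the set. Irf1 was closest to H2-K1 (0.41, 0.34 and 0.53), Irf3 to Mki67 (0.41, 0.26 and 0.29) and Cxcl10 to Atf3, a stress-response transcription factor gene (0.23, 0.19 and 0.28). Cxcl9 had its highest mean with Lag3, a T cell checkpoint receptor gene (0.10, 0.09 and 0.08), and single blanks gave means of 0.011 to 0.10 with it. Tiles of a section share its depth and its patches, so these values are descriptions.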

How the data were processed

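Gene detections in single cells were measured by MERSCOPE in 3 tumour sections, 1 per tumour. The deposited tables hold raw transcript counts per segmented cell for 258 genes and 27 blank codes, per the file headers; the design text names a panel of 265 genes. Cell volume and position carry no unit and were taken as µm from their extents. The decoding, the segmentation and the reference build were not stated in the labels; Scanpy 1.9.3 is named in the submitters' processing notes without its role. The 10 members and all marker and pathway lists were chosen with earlier results of these data known.

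A cell was kept if it held 20 or more panel transcripts and its volume lay between 50 and 3 times the median of its section. A cell joined the class with the most marker transcripts if it had at least 3 of at least 2 genes, and ties were unassigned. No doublet caller was run. Counts were summed per tumour and arm, for arms of at least 100 cells, and tested with edgeR 4.0.16 (limma 3.58.1, R 4.3.3): TMM normalization, filterByExpr, glmQLFit and glmQLFTest with the tumour as a block, and Benjamini-Hochberg adjustment over all genes tested at 0.05. The block is warranted because both arms came from the same section, and deviations from the arm means correlated by 0.16 to 0.85 within a tumour. Gate markers were left out of the class comparisons. Python 3.11.15 with numpy 2.4.6, scipy 1.17.1 and pandas 2.3.3 was used for sums, tiles and distances, and DESeq2 1.42.0 as an alternative. On simulated data for the rich tiles of epithelial-like cells, the fit recovered 100% of 40 genes among 257, each given a log2 of 2. False calls among the others were 0.461%. In the sections the log2 ratio of Mx1 between these tiles was 2.24, 4.35 and 5.03 in tumours 1, 2 and 3. Mx1 did not pass there, while Irf7 and Ifit1 did. How often the fit recovers a difference that varies in size between tumours was not tested. Genes open to naming in a comparison were the 10 members, the other interferon genes of the panel (Ifnb1, Ifng, Cxcl11, Irf2, Irf8, H2-K1, Cd274 and Ccl5) and up to 5 other genes. The latter had the largest difference among those past the threshold with 1 sign in 3 of 3 tumours and above the highest blank in each. Ifng is a gate marker and was not tested between classes. The text gives only part of these: several comparisons name only some members, and few of the other genes are named. Ifnb1, Ifng, Cxcl11 and Irf2 are given no value. Median depths of 94 to 106 transcripts per cell limit what a single cell shows, and shares of cells were therefore compared at 60 to 150 transcripts. Alternatives changed the normalization, the tool, the filter, the block, the tumours used, the depth minimum, the gates, the tile size and the share of tiles called rich. A macrophage gate with a different marker list is not reported here.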

Additional observations from a re-analysis of the deposited data

How the results depend on the processing

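Over 77 results on members, 849 values were computed under alternatives. Of these 718 kept their direction and side of the threshold, 83 lost the threshold, 32 gained it and 16 changed sign, of which 0 were called in the main setting. The alternative without a filter on low counts equals the main setting, because the filter had removed no gene, so its values are the same by construction. Members not called in Pdgfrb- and Rgs5-gated cells, in T- or NK-gated cells or near the latter were left out of this tally. Of the interactions only Cxcl10 was counted.

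Leaving out 1 tumour gave 21 to 71 called genes for macrophage-like cells (67 with all), 85 to 138 for fibroblast-like cells (138), 15 to 58 for Isg15-positive cells (31), 0 to 16 for rich tiles in epithelial-like (2), 1 to 30 in macrophage-like (6) and 3 to 25 in fibroblast-like cells (11), 0 to 1 for the fibroblast-like interaction (0) and 0 to 3 near T- or NK-gated cells (2). Without the replicate block the counts were 29, 91, 14, 0, 0 and 4 in the first 6 of these, and 1 near T- or NK-gated cells. DESeq2 gave 86 for Isg15-positive cells, 68, 17 and 17 in the tiles, 1 for the interaction and 12 near T- or NK-gated cells. For Isg15-positive cells 14 genes passed without cells holding another class's marker and 11 in tiles that were not rich. In epithelial-like rich tiles 6 passed without such cells, and 1 each with tiles of 50 µm, with cells lacking Isg15 and with 60 to 150 transcripts. At least 40 transcripts per cell gave 16 in macrophage-like and 5 in fibroblast-like rich tiles and 1 near T- or NK-gated cells, the top 5% of tiles gave 18 in macrophage-like cells, and distances of 15 and 50 µm gave 4 near T- or NK-gated cells. Where the construction does not show it, the cause was not tested.

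Signs changed as follows. In macrophage-like cells Ifit1 was 0.054 and Irf9 0.034 with library size alone and Ifit1 ranged from -0.16 to 0.15 as tumours were left out. In fibroblast-like cells Cxcl10 was -0.042 with library size alone and Ifit3 ranged from -0.34 to 0.0088. In Pecam1- and Cdh5-gated cells Irf1 was -0.39 with library size alone, Isg15 ranged from -0.38 to 0.19 and Ifit3 from -0.31 to 0.16. In Isg15-positive cells Cxcl9 ranged from -0.065 to 0.32, was -0.0051 in rich and -0.015 in other tiles, and Irf3 was 0.053 without other markers. In macrophage-like rich tiles Cxcl9 was 0.078 with a gate of 5 transcripts and 0.78 with tiles of 50 µm, and ranged from -1.02 to 0.22 as tumours were left out.

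Not run, for too few cells, were the planned tile test and interaction for Pecam1- and Cdh5-gated cells with most of their alternatives, the comparison near T- or NK-gated cells without other markers, and macrophage-like tiles without epithelial transcripts. What can be said of Cxcl9 and Cxcl10 is limited, because their totals lie within those of the blanks.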

Other observations

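Cells with at least 5 Cxcl9 transcripts numbered 3, 33 and 0 in tumours 1, 2 and 3. The 33 cells of tumour 2 held 459 of its 3636 Cxcl9 transcripts (12.6%), with up to 62 in 1 cell, and 29 of them lay in a band 10 µm wide and 1498 µm long. They also held 290 transcripts of Tnfrsf1b, or 105 per 1000 against 2.16 in the section. Of these cells 18 were gated as epithelial-like and 15 were unassigned.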
